A study of Homo sapiens with 21 samples.

Results

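The 38 genes described here encode proteins that copy the chromosomes and divide the cell, and they were selected by gene symbol. All 38 were found in the 58735 genes of the count table, and all 38 were among the 16196 genes with enough counts to be tested. By their known roles they fall into 16 genes of the G1/S transition and DNA replication and 22 genes of G2 and mitosis (G2/M). RNA sequencing covered 21 libraries of cells labelled HepG2, the name of a human hepatoma line. The cells had spent 6 h in serum-free medium with coumarin, a plant-derived fragrance compound, at 0, 0.001, 0.01, 0.1, 1, 10 or 100 µM. Each dose had 3 libraries, which the design text calls biological replicates, and the 0 µM libraries are the untreated control. Every comparison is therefore between cells without serum, at 1 time point.

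Dividing cells switch these genes on in 2 waves. In late G1, transcription factors of the E2F family activate genes for the MCM helicase, its loading factors and nucleotide synthesis, so that replication origins can be licensed and DNA copied. In G2, complexes that contain B-MYB and FOXM1 act on genes for mitotic kinases, the spindle, the checkpoint and cytokinesis, through promoter elements known as the CCAAT box, bound by NF-Y, and the cell cycle genes homology region (CHR). Transcript levels of both sets are widely used as a readout of how many cells in a culture are cycling. In RNA from a whole culture, fewer cells in a phase and less RNA per cell cannot be told apart.

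The promoters were searched for the elements of both waves, and 1 replication gene that was not called and 3 G2/M genes whose values are central below are shown. Each line is the RefSeq sequence (GRCh38.p14) from 250 bases before to 50 bases after the annotated start, 5′ to 3′ on the gene's strand. Capitals mark any match, on either strand, to an E2F core, a CHR or a CCAAT box. The E2F cores searched were TTCCCGC and, as further forms of the site, TTGGCGC and, in the same way, the form TTCGCGC. The CHR forms searched were TTTGAA and the other common form, TTTAAA. The CCAAT box was searched as the letters of its name, and in ECT2 an E2F core overlaps a CCAAT box. The lines are MCM3 (chr6:52284693-52284992, minus strand), CCNA2 (chr4:121823834-121824133, minus strand), CCNB1 (chr5:69166900-69167199, plus strand) and ECT2 (chr3:172750476-172750775, plus strand).
MCM3: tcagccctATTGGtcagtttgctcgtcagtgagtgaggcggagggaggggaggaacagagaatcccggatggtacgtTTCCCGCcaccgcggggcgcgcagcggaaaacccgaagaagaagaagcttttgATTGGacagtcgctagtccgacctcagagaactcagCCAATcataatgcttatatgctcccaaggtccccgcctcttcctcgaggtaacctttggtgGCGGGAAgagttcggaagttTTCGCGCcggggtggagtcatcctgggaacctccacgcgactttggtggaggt
CCNA2: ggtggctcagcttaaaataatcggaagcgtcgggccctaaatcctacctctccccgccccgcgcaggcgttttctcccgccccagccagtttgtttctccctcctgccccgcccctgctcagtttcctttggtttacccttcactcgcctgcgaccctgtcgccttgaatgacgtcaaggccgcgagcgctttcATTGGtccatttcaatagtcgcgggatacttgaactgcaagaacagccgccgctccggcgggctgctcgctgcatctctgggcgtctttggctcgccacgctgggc
CCNB1: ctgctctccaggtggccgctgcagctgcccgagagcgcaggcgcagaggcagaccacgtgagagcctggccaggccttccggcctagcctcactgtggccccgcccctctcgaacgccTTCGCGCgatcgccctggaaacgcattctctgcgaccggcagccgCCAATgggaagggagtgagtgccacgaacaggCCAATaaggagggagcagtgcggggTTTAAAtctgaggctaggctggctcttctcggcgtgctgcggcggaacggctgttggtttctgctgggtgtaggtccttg
ECT2: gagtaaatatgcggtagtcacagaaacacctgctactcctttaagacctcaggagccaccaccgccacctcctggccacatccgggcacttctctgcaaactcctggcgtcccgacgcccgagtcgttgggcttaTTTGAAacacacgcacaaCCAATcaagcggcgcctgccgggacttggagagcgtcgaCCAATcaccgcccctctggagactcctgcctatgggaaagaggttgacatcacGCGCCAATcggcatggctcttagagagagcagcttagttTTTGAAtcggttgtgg

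Promoter sequences matched 33 of the 38 genes, and AURKA, CCNE2, MCM4, MCM5 and TPX2 were not matched. An E2F core was present in 11 of 13 G1/S promoters (84.6%) and 4 of 20 G2/M promoters (20%), against 11% of the 35116 promoters of the same length in the table. A CHR was present in 17 of 20 G2/M promoters (85.0%) and 3 of 13 G1/S promoters (23.1%), against 24.0% of all promoters. The CCAAT box was common to both sets, at 17 of 20 G2/M promoters (85.0%) and 9 of 13 G1/S promoters (69.2%), against 34.6% of all promoters. These matches describe letters in the window only, and other forms of the E2F site or the CHR were not searched. A promoter without a match may therefore still hold such a site. The MCM3 line holds 3 E2F cores and no match to the CHR forms searched. The CCNB1 line holds a CHR 30 bases before the start and also an E2F core 132 bases before it. The CCNA2 line holds a CCAAT box and no match to the E2F or CHR forms searched.

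**Figure D1:**
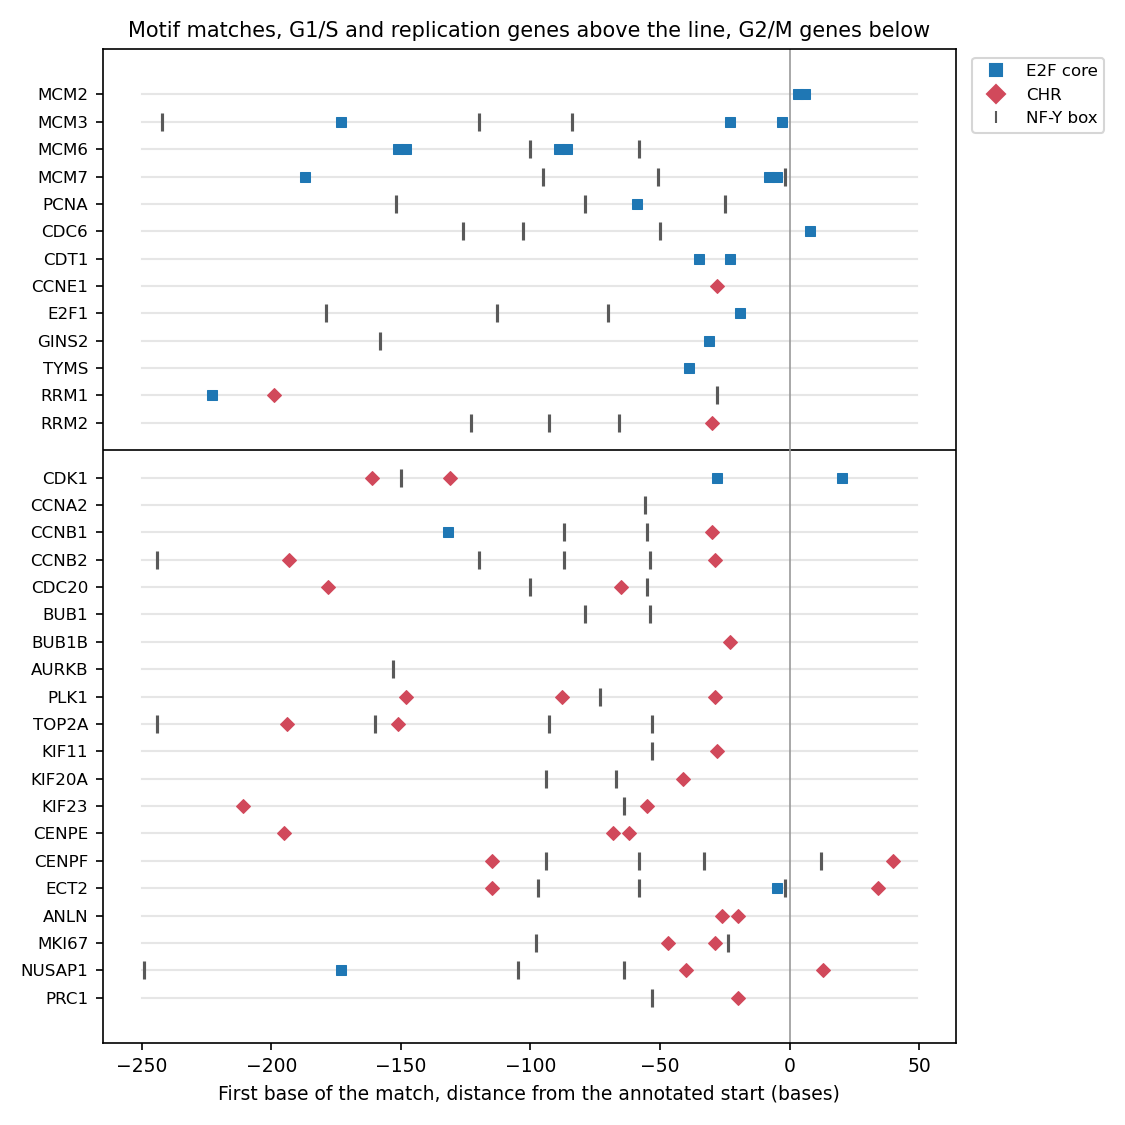
Position of each motif match in the 33 matched promoters, as the distance in bases of its first base from the annotated start. E2F cores (squares) lie mostly in the G1/S genes above the line (11 of 13 promoters) and CHR matches (diamonds) mostly in the G2/M genes below it (17 of 20); vertical ticks are CCAAT boxes, labelled NF-Y box.

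Total gene counts were 27984517 to 43704155 per library, and a member had between 79 and 67981 counts in a library. No replicate pair was alike enough to be a repeat deposit: over 21 pairs, chi-square was 2.74 to 12.8 per degree of freedom. The label HepG2 was not matched by hepatocyte markers. All 12 hepatocyte genes examined were under 1 CPM (counts scaled to a common library size by TMM), 3 of them had 0 reads, and their summed level was 0.0660 to 0.116 CPM at 100 µM and 0.0589 to 0.138 CPM at 0 µM. The 4 keratin genes of simple epithelium, of which KRT19 was under 1 CPM and KRT7, KRT8 and KRT18 made up the sum, reached 4030.1 to 4152 CPM at 100 µM and 4205 to 4559 CPM at 0 µM, and 6 mesenchymal genes summed to 1658 to 1713 CPM at 100 µM and 1717 to 1769 CPM at 0 µM. Both sums were thus lower in every 100 µM library, and their part in the results below was not tested.

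Most of the genes were well expressed in the untreated cells. On the deposited FPKM scale, which divides counts by gene length and library size and so allows genes to be compared, RRM1, the large subunit of ribonucleotide reductase, was highest at 387 ± 17 FPKM (SD, n = 3). The sliding clamp PCNA stood at 243 ± 9.2 FPKM, the helicase subunits MCM7 and MCM3 at 134 ± 7.4 and 124 ± 3.3 FPKM, DNA topoisomerase TOP2A at 108 ± 3.5 FPKM and cyclin B1 (CCNB1) at 106 ± 3.7 FPKM. The lowest were the kinetochore motor CENPE at 4.79 ± 0.28 FPKM, the G1/S cyclins CCNE2 and CCNE1 at 4.15 ± 0.27 and 1.47 ± 0.40 FPKM, and the spindle midzone protein PRC1 at 0.955 ± 0.13 FPKM. Of their exon bases, CCNE2 shares 37.05% with INTS8 on the other strand and PRC1 shares 57.57% with another gene on the same strand. The levels of CCNE2 and PRC1 are therefore uncertain.

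At 100 µM, 8 of the 38 genes fell and none rose (edgeR quasi-likelihood test, adjusted p under 0.05 over all genes tested). The background is 8.58% of all genes called in that comparison, 4.82% lower and 3.77% higher. The genes that fell were 7 of 22 in G2/M (CCNA2, BUB1, KIF20A, KIF23, CENPF, ECT2 and ANLN) and 1 of 16 in G1/S (MCM4). Most members are abundant, and the background was higher among genes with a mean of at least 50 CPM, where 15.4% were called, 10.3% lower and 5.09% higher. The G1/S share, 6.25%, lay near either background, and the G2/M share was 31.8%. The members were chosen with earlier results of these data known, and of 52 further mitosis genes none passed in this comparison. The G2/M share therefore does not describe mitosis genes as a whole. At an unadjusted p under 0.05 the counts were 13 of 22 G2/M genes, 5 of 16 G1/S genes and 3735 of all genes.

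The changes were small. Against 0 µM, the median log2 fold change was -0.11 over the 22 G2/M genes and -0.02 over the 16 G1/S genes, against 0.0025 over all genes tested. Against the 5 lower treated doses, the class medians were closer together, at -0.058 and -0.045. In the comparison with 0 µM, no gene passed a fold of 1.2 in either direction. Over all 38, the 95% intervals reached down to -0.43 and up to 0.35, the fold range 0.742 to 1.28. Calls depended on single libraries: the count of 8 became 3 without control replicate 1, 2 without control replicate 2, 2, 4 and 5 without 100 µM replicates 1, 2 and 3, and 13 without 0.1 µM replicate 1. Those 13 were 12 lower and CDT1 higher. CDT1 was also called higher without 0.1 µM replicate 3 and without control replicate 3, where AURKB was called higher too. CCNA2 and ECT2 passed the threshold with any of the 21 libraries left out.

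**Figure D2:**
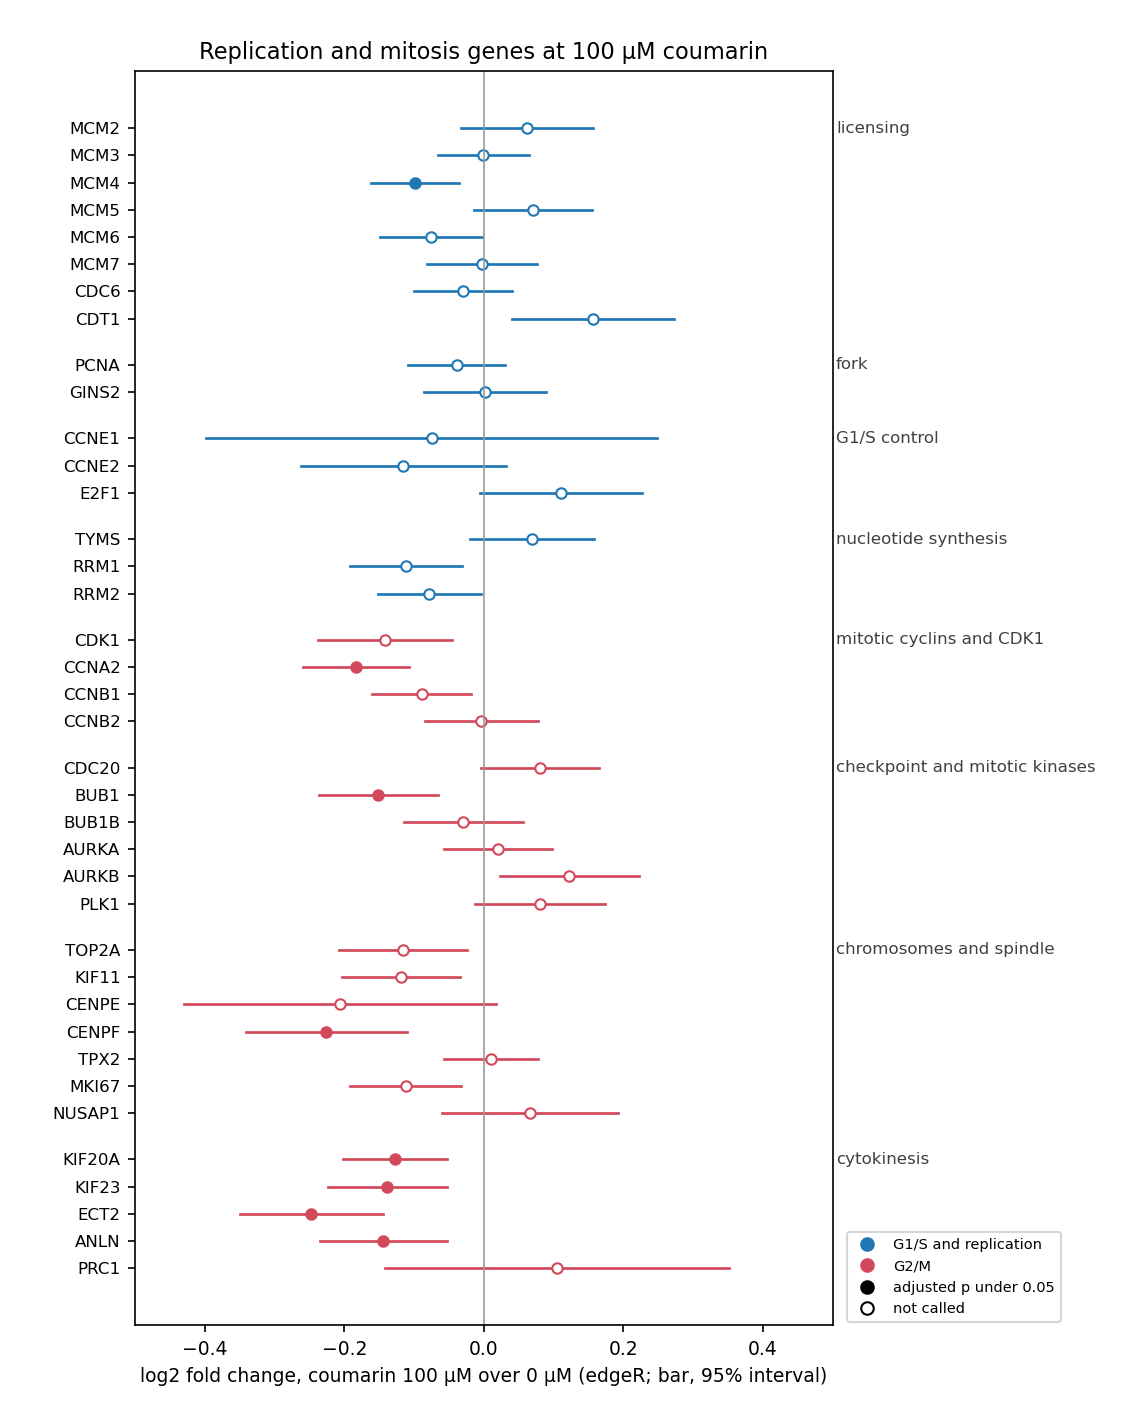
Log2 fold change of each gene at 100 µM over 0 µM (edgeR; bars, 95% intervals; 3 libraries per group), grouped by role. Filled points passed an adjusted p of 0.05: 7 G2/M genes and MCM4, all below 0, with 4 of the 5 members placed under cytokinesis among them.

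Cytokinesis was the role with the most calls, at 4 of 5 genes. That count covers only the members placed under this role, and none of 52 further mitosis genes passed in the same comparison. ECT2, the exchange factor that activates RhoA at the division plane, had 142, 150.3 and 146 CPM at 100 µM, against 177, 179 and 164 CPM at 0 µM. The groups did not overlap, and every 100 µM library was also below all 15 libraries of the lower treated doses, which ranged from 152 to 179 CPM. The log2 fold change was -0.25 (SE 0.05, edgeR adjusted p = 0.0014), and it passed the threshold in every alternative run.

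ANLN, which encodes anillin, the scaffold of the contractile ring, had 337, 362 and 363 CPM at 100 µM, against 408, 399 and 366 CPM at 0 µM. The groups did not overlap, although control replicate 3 lay just above the 100 µM libraries. Its log2 fold change was -0.14 (SE 0.04, edgeR adjusted p = 0.0401), and it was called in 12 of 21 fits with 1 library left out.

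KIF23, the kinesin of the centralspindlin complex, had 125, 131 and 128 CPM at 100 µM, against 141, 149 and 133 CPM at 0 µM. KIF20A, a kinesin of the central spindle, had 154, 159 and 166 CPM at 100 µM, against 175, 174 and 176 CPM at 0 µM. Neither pair of groups overlapped, and the log2 fold changes were -0.14 (SE 0.04, edgeR adjusted p = 0.0335) for KIF23 and -0.13 (SE 0.04, edgeR adjusted p = 0.0239) for KIF20A. They were called in 17 and 16 of the 21 fits with 1 library left out. PRC1, which bundles midzone microtubules, had a log2 fold change of 0.11 and 4.98, 5.74 and 5.79 CPM at 100 µM, against 4.32, 5.46 and 5.65 CPM at 0 µM. The groups overlapped, and 57.57% of the exon bases of PRC1 are shared on the same strand with another annotated gene, so its count is uncertain.

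Among the mitotic cyclins and their kinase, 1 of 4 genes fell. CCNA2, which encodes cyclin A2, the cyclin of S phase and G2, had 125, 128 and 122 CPM at 100 µM, against 147, 139.7 and 139 CPM at 0 µM. All 3 of its 100 µM libraries were below the other 18, whose lower treated doses spanned 132 to 144 CPM. The log2 fold change was -0.18 (SE 0.04, edgeR adjusted p = 0.00127). Shared exon sequence on the other strand, with EXOSC9, covers 9.08% of the exon bases of CCNA2, and whether the counting used strand is not given in the sources used here.

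CDK1, the kinase that drives entry into mitosis, had 147, 154 and 156 CPM at 100 µM, against 175, 177 and 152 CPM at 0 µM. Control replicate 3 lay within the 100 µM range, and the log2 fold change was -0.14 (edgeR adjusted p = 0.0544). CCNB1, the regulatory partner of CDK1, had 248, 253 and 246 CPM at 100 µM, against 274, 260.4 and 260.5 CPM at 0 µM. Its groups did not overlap, but the log2 fold change of -0.09 did not pass (edgeR adjusted p = 0.11). With an offset for gene length it was -0.13 and passed (edgeR adjusted p = 0.00986). The related cyclin CCNB2 had a log2 fold change of -0.0035, with overlapping groups.

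Of the 6 checkpoint and mitotic kinase genes, 1 fell. BUB1, a kinase of the spindle checkpoint, had 88.8, 89.5 and 92.3 CPM at 100 µM, against 102, 103 and 95.5 CPM at 0 µM, with no overlap. Its log2 fold change was -0.15 (SE 0.04, edgeR adjusted p = 0.0197). The related checkpoint gene BUB1B was at -0.03, and 10.21% of its exon bases are shared with a readthrough gene on the same strand.

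Several kinase genes had values above 0 that did not pass. AURKB, the kinase of the chromosomal passenger complex, had 111, 103 and 102 CPM at 100 µM, against 96.3, 92.3 and 102 CPM at 0 µM, and a log2 fold change of 0.12 (edgeR adjusted p = 0.113). The groups did not overlap, by a margin of less than 1 CPM. PLK1, a kinase needed at several steps of mitosis, and CDC20, the activator of the anaphase-promoting complex, were both at 0.08, and the spindle pole kinase AURKA was at 0.02.

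Among 7 genes of chromosomes and spindle, CENPF was the 1 that fell. CENPF, a kinetochore protein that accumulates in G2, had 285, 306 and 289.7 CPM at 100 µM, against 344, 353 and 332 CPM at 0 µM. The groups did not overlap, and the log2 fold change was -0.23 (SE 0.06, edgeR adjusted p = 0.0119). CENPE had the widest interval of the set of 7, with 36.0, 39.8 and 38.6 CPM at 100 µM, against 42.0, 47.4 and 43.0 CPM at 0 µM, and did not pass at -0.21 (edgeR adjusted p = 0.26).

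TOP2A, which untangles chromosomes, had 603, 639.7 and 631 CPM at 100 µM, against 685, 695 and 651 CPM at 0 µM. KIF11, the kinesin that pushes spindle poles apart, had 129, 132 and 129 CPM at 100 µM, against 139.6, 146 and 137 CPM at 0 µM. In both genes the groups did not overlap, yet the log2 fold change of -0.12 did not pass in either (edgeR adjusted p = 0.107 for TOP2A and 0.0693 for KIF11). The spindle assembly factor TPX2 was at 0.01 and the microtubule binder NUSAP1 at 0.07. For NUSAP1, 62.16% of exon bases are shared on the same strand with an annotated gene that had 0 CPM.

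**Figure D3:**
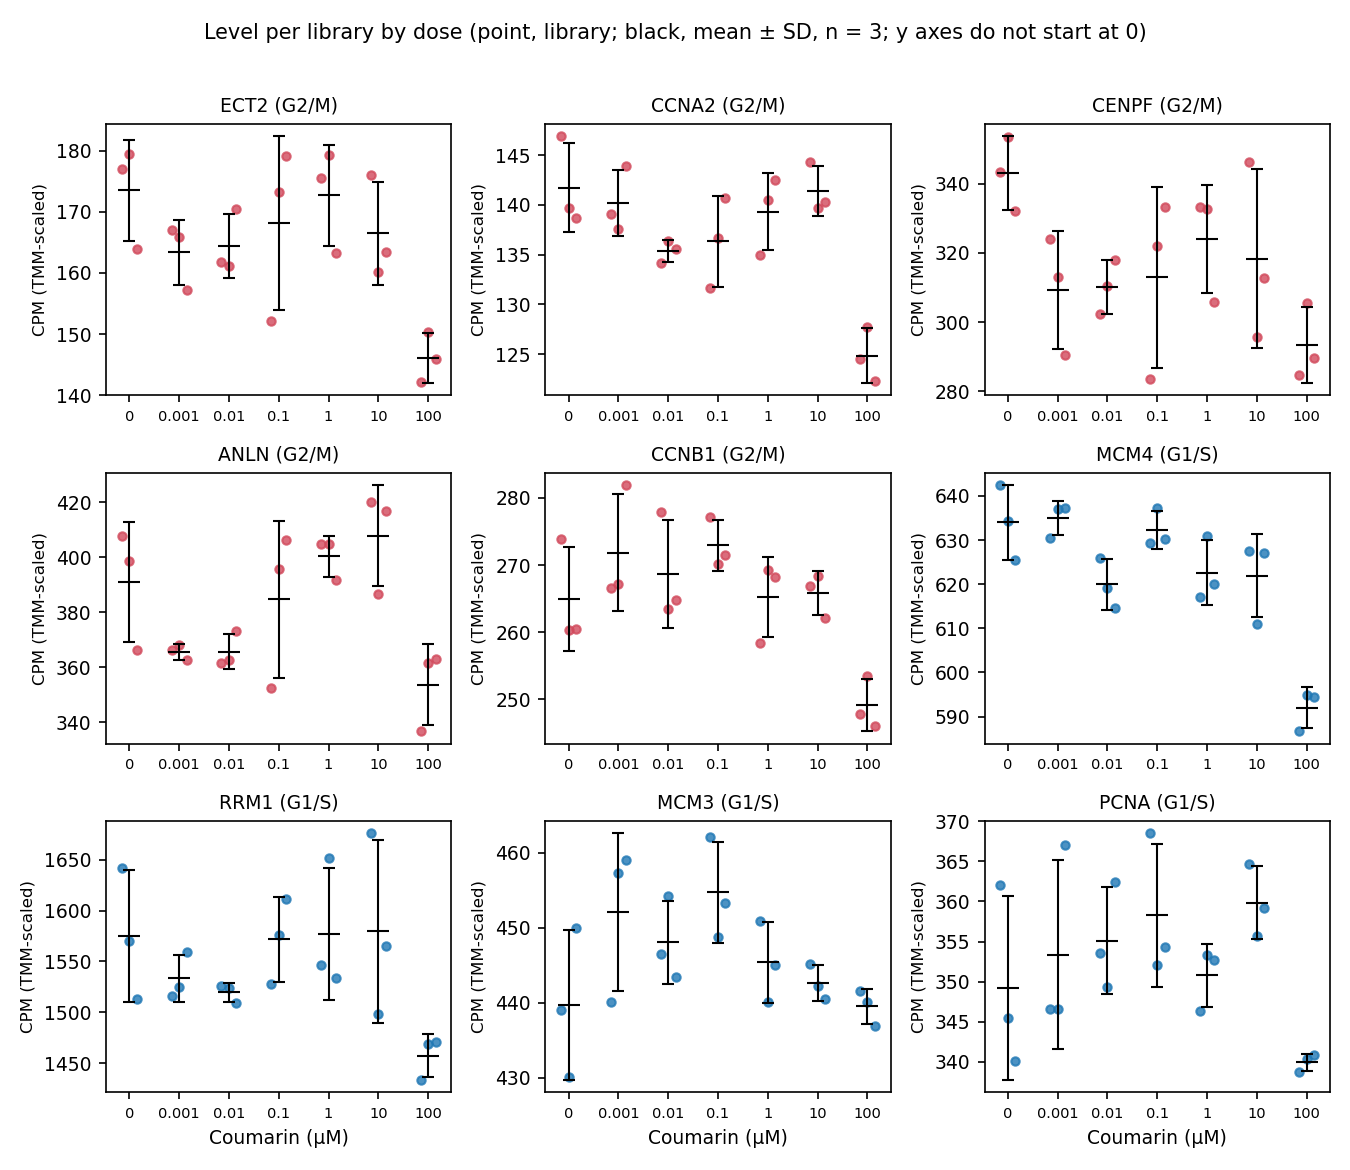
Level of 9 genes in CPM (TMM-scaled) in each of the 21 libraries, by coumarin dose from 0 to 100 µM (black bars, mean and SD; axes do not start at 0). In ECT2 and CCNA2 all 3 libraries at 100 µM lie below the other 18.

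MKI67, the proliferation marker Ki-67, was below its control level in most treated libraries. It had 369, 369 and 372 CPM at 100 µM, against 398, 397 and 404 CPM at 0 µM, and 14 of the 15 libraries at 0.001 to 10 µM were also below all 3 controls. Its log2 difference from 0 µM was -0.05, -0.11, -0.13, -0.10, -0.14 and -0.11 from the lowest to the highest dose, 6 comparisons that share the same controls. None passed (edgeR adjusted p = 0.0684 at 100 µM and 0.0941 at 10 µM). Against the 5 lower treated doses, 100 µM differed by -0.0069 (95% interval -0.07 to 0.05, edgeR adjusted p = 0.925).

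The 3 longest members were MKI67, CENPF and CENPE, at 12807, 11690 and 9444 bases, and libraries differed in how counts varied with gene length. The slope of the log2 level per doubling of length was lowest in 0.1 µM replicate 1, at -0.039, and highest in control replicate 2, at 0.039. It was above 0 in all controls (0.0080, 0.039 and 0.0073) and below 0 in all 100 µM libraries (-0.0081, -0.00014 and -0.0019). With an offset for length, MKI67 was at -0.07 at 100 µM (edgeR adjusted p = 0.194), CENPF at -0.19 (adjusted p = 0.00266) and ECT2 at -0.24 (adjusted p = 0.000836). The median over G2/M genes was -0.11 with that offset, and 9 of 22 were then lower. The offset added CCNB1, CDK1 (-0.16, adjusted p = 0.0377) and RRM1 (-0.12, adjusted p = 0.0469) to the edgeR calls and removed MCM4. Median length was 6022 bases in the 8 members that fell and 4024.5 bases in the other 30.

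In the G1/S and replication set, 1 of the 8 licensing genes fell. MCM4, a subunit of the replicative helicase, had 587, 595 and 595 CPM at 100 µM, against 642, 634 and 625 CPM at 0 µM. All 3 of its 100 µM libraries were below the other 18, and its log2 fold change was -0.10 (SE 0.03, edgeR adjusted p = 0.0394). Of the 8 calls against 0 µM it was lost in the most fits with 1 library left out, 11 of 21. It was also lost with an offset for gene length (edgeR adjusted p = 0.0827), without a filter on low counts (adjusted p = 0.188) and with only the 6 libraries compared (adjusted p = 0.0978).

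No other helicase subunit passed the threshold. MCM3 had 442, 440.1 and 437 CPM at 100 µM, against 439, 430.0 and 450.0 CPM at 0 µM, with overlapping groups and a log2 fold change of -0.00061 (95% interval -0.07 to 0.06). MCM7 was at -0.0026, MCM2 at 0.06, MCM5 at 0.07 and MCM6 at -0.08. The loading factor CDC6 was at -0.03. CDT1, its partner in loading the helicase, had 138, 131 and 126 CPM at 100 µM, against 113, 115 and 126 CPM at 0 µM, the largest value above 0 in the set at 0.16 (edgeR adjusted p = 0.084). Its 100 µM and control ranges overlapped by a margin of less than 1 CPM.

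For nucleotide synthesis, RRM1 had 1434, 1469 and 1471 CPM at 100 µM, against 1642, 1570.4 and 1513 CPM at 0 µM. The 100 µM libraries were below the other 18, but the difference of -0.11 did not pass (edgeR adjusted p = 0.0722). RRM2, the small subunit that limits ribonucleotide reductase activity through the cell cycle, was at -0.08, and TYMS, thymidylate synthase, at 0.07. For RRM2, 20.23% of exon bases are shared with a gene on the same strand, and for TYMS 39.15% with ENOSF1 on the other strand.

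At the fork, PCNA was at -0.04 and GINS2, a subunit of the active helicase complex, at 0.0015. The regulators of the transition were E2F1 at 0.11, CCNE1 at -0.07 and CCNE2 at -0.12, none past the threshold. E2F1, the transcription factor, had 47.2, 46.7 and 46.2 CPM at 100 µM, against 44.5, 40.5 and 44.6 CPM at 0 µM. Its groups did not overlap, and with AURKB it was 1 of 2 genes whose 100 µM libraries all lay above the controls. Across the 38 genes, 16 had all 3 libraries at 100 µM below all 3 controls and 20 overlapped. The background for that count was 13.9% of all genes lower and 13.1% higher. It covers genes of all levels and was not computed for abundant genes alone, although most members are abundant.

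**Figure D4:**
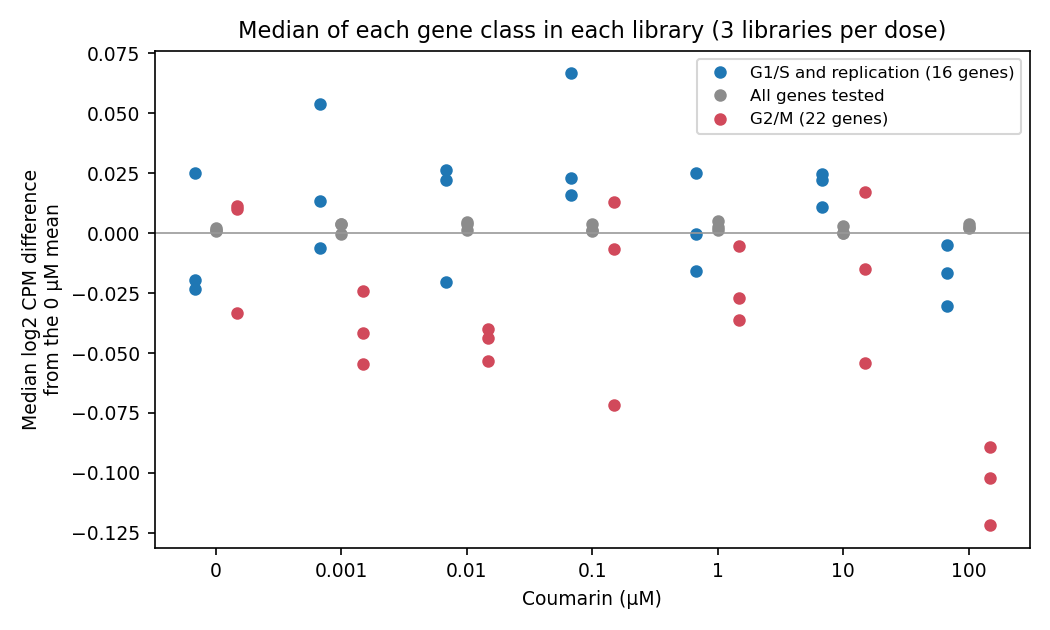
Median log2 level of the 16 G1/S and the 22 G2/M genes in each of the 21 libraries, relative to the 0 µM mean, by dose, with the median of all genes tested in grey. The G2/M medians at 100 µM, -0.12 to -0.09, lie below every other library, while the G1/S medians there, -0.03 to -0.0050, overlap the controls.

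Library by library, the G2/M median relative to control was -0.12 to -0.09 at 100 µM and -0.03 to 0.01 at 0 µM. The lowest value in any other library was -0.07, at 0.1 µM. The G1/S median was -0.03 to -0.0050 at 100 µM and -0.02 to 0.03 at 0 µM. The groups were thus apart for the G2/M genes and overlapped for the G1/S genes. The difference between the medians, G2/M minus G1/S, was -0.11 to -0.07 at 100 µM and -0.02 to 0.03 at 0 µM. It was below 0 in every library at 0.001 to 10 µM. Its lowest values there were -0.11 at 0.001 µM, -0.08 at 0.01 µM, -0.14 at 0.1 µM, -0.06 at 1 µM and -0.08 at 10 µM. The difference at 100 µM thus overlapped that at lower doses.

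Below 100 µM no gene of the set passed the threshold at any dose by edgeR. The background was 0% of all genes at 0.001, 0.01, 0.1 and 1 µM, and 0.321% at 10 µM, 0.0803% lower and 0.241% higher. At an unadjusted p under 0.05 there were 2, 4, 2, 1 and 1 of the 38 members from 0.001 to 10 µM. The background for these counts was 1330, 1415, 987, 609 and 1938 of all 16196 genes. DESeq2 called 1 member, MKI67 at 10 µM, as did edgeR without 0.1 µM replicate 1. The G2/M median log2 fold change was -0.05, -0.05, -0.01, -0.03, -0.02 and -0.11 from 0.001 to 100 µM, all against the same controls. The G1/S medians were 0.01, 0.02, 0.04, 0.0042, 0.02 and -0.02.

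**Figure D5:**
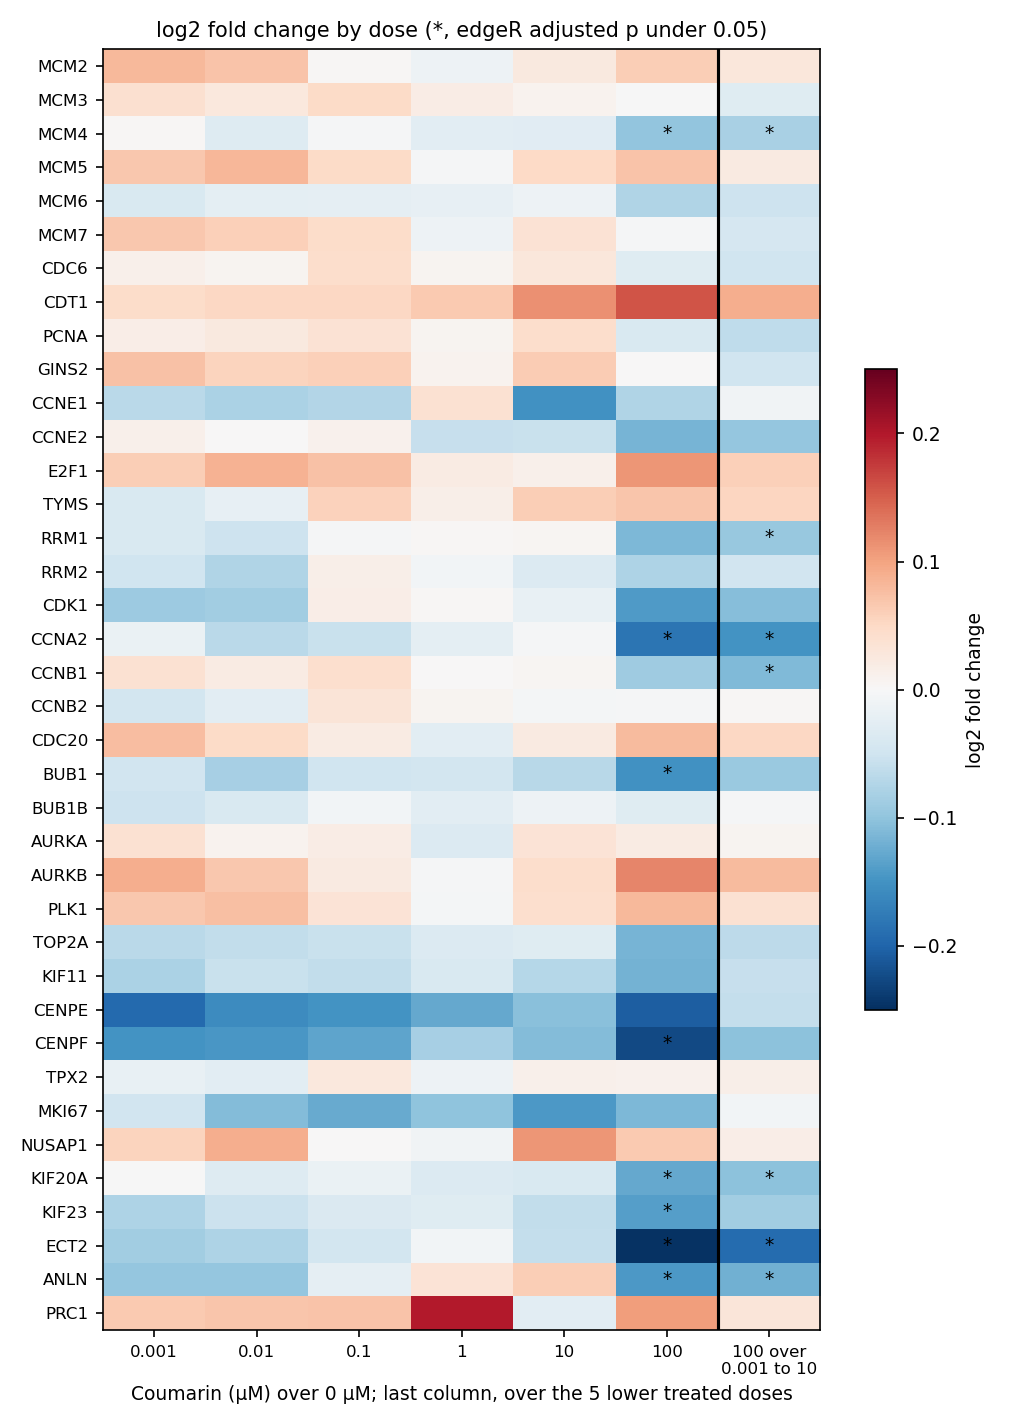
Log2 fold change of each of the 38 genes at each of the 6 coumarin doses over 0 µM, and in the last column at 100 µM over the 5 lower treated doses (asterisks, edgeR adjusted p under 0.05). Of the 6 columns that share the 0 µM libraries, the 100 µM column holds all the asterisks, on 8 genes, and the last column holds 7.

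A comparison that leaves the controls out set 100 µM against the 5 lower treated doses. Here 7 genes fell and none rose, against a background of 10.1% of all genes, 5.67% lower and 4.4% higher. No background for this comparison was computed for abundant genes alone, although most members are abundant. The genes that fell were CCNA2 (log2 difference -0.15), ECT2 (-0.19), CCNB1 (-0.11), KIF20A (-0.10), ANLN (-0.12), MCM4 (-0.08) and RRM1 (-0.09). By class they were 5 of 22 G2/M genes (22.7%) and 2 of 16 G1/S genes (12.5%). The median log2 difference was -0.058 over G2/M genes and -0.045 over G1/S genes, against 0.0026 over all genes tested. The classes thus lay closer together here than against 0 µM. The RRM1 call (edgeR adjusted p = 0.0454) held in 6 of 21 fits with 1 library left out and in 4 of 9 other settings. BUB1, CENPF and KIF23, called against 0 µM, did not pass here (edgeR adjusted p = 0.0692, 0.15 and 0.0892). All 3 libraries at 100 µM were below all 15 lower treated libraries in 6 genes, MCM4, PCNA, RRM1, CCNA2, CCNB1 and ECT2, and above them in 0, against 3.75% and 2.68% of all genes. They were also below the other 18 libraries in 5 of these, all but PCNA, against 3.31% of all genes. The count of 7 became 2, 3 and 4 without 100 µM replicates 1, 2 and 3, and 11 without 0.1 µM replicate 1.

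Across the 7 groups, CCNA2, ECT2 and ANLN differed (edgeR adjusted p = 0.0132, 0.0219 and 0.0137), with a background of 4.65% of all genes. ANLN averaged 366, 366, 385, 400.4, 408 and 354 CPM from 0.001 to 100 µM and 391 CPM at 0 µM, so its highest mean was at 10 µM. A straight line over log10 dose among treated libraries gave 1 call, CCNB1, at -0.021 per 10-fold dose (SE 0.0059, edgeR adjusted p = 0.0384), against a background of 4.45%, 2.52% lower and 1.93% higher. CCNB1 averaged 272, 269, 273, 265, 266 and 249 CPM from 0.001 to 100 µM, with the lowest mean at the top dose. No gene was called for the slope in 10 of the 21 fits with 1 library left out (0.001 µM replicates 1, 2 and 3, 0.01 µM replicates 1 and 3, 1 µM replicate 1, 10 µM replicates 2 and 3, or 100 µM replicates 1 and 2), and without 100 µM replicate 3 the call was TYMS in place of CCNB1. The 3 calls across the groups became 0, 1 and 1 without 100 µM replicates 1, 2 and 3.

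The rest of the pathway was read from lists of further genes. Of 44 further replication genes, 4 fell and none rose at 100 µM against 0 µM, with a median of -0.03. That share, 9.09%, lay between the 4.82% of all genes and the 10.3% of genes of at least 50 CPM that fell, so the count does not set the list apart. The genes were the initiation factor MCM10 (-0.18), the clamp loader subunit RFC4 (-0.15), the mismatch repair gene MSH6 (-0.18) and the crosslink repair gene FANCI (-0.14). Against the 5 lower treated doses, 4 of the 44 fell (RFC4, SLBP, MSH6 and FANCI) and EXO1 rose, where 5.67% of all genes fell and 4.4% rose. RFC4 was the 1 gene of the 44 that fell in the slope over dose, where 2.52% of all genes fell.

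Of 52 further mitosis genes none passed at 100 µM against 0 µM, with a median of -0.04, where 8.58% of all genes and 15.4% of those of at least 50 CPM passed. Against the 5 lower treated doses, 4 of the 52 fell (NCAPH, PTTG1, MELK and TRIP13) and KIF4A rose, where 5.67% of all genes fell and 4.4% rose. The counts against the lower treated doses do not set the list apart. Against 0 µM, the share of 0% was below both backgrounds. MELK was the 1 gene of the 52 that fell in the slope over dose, where 2.52% of all genes fell.

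Of 35 cell cycle regulators tested, 2 rose and 3 fell at 100 µM against 0 µM. That share, 14.3%, was near the 15.4% called among genes of at least 50 CPM and above the 8.58% of all genes, so it too does not set the list apart. CDKN1A, the inhibitor p21 that blocks cyclin-dependent kinases, averaged 33.9 ± 0.50 CPM at 100 µM and 25.2 ± 1.4 CPM at 0 µM (SD, n = 3 each), a log2 fold change of 0.43 (SE 0.07, edgeR adjusted p = 3.7e-05). MYC, the growth-promoting transcription factor, averaged 498 ± 19 CPM at 100 µM and 416 ± 3.6 CPM at 0 µM, a log2 fold change of 0.26 (SE 0.04, edgeR adjusted p = 4e-06). The retinoblastoma gene RB1 (-0.17), the ubiquitin ligase subunit SKP2 (-0.14) and LIN9 (-0.18), a subunit of the MuvB complex that acts at G2/M promoters, also fell. FOXM1 was at 0.10 (edgeR adjusted p = 0.0753) and CCND1, cyclin D1, at -0.10 (edgeR adjusted p = 0.0954).

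Within the G2/M set, promoter motifs were present in both the genes that fell and those that did not. A CHR of the forms searched was found in 5 of the 7 that fell and 12 of the 13 matched genes not called. A CCAAT box was found in 6 of 7 and 11 of 13. With other CHR forms not searched, these counts do not show that fewer of the genes that fell hold a CHR. An E2F core was found in 1 of 7 and 3 of 13. Among the promoters printed above, ECT2 had matches to all 3 motifs and CCNA2 only to the CCAAT box, in the forms searched. Both genes fell.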

How the data were processed

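Per the labels' protocols, libraries were made from poly(dT)-purified RNA with the SmartScribe enzyme. The authors deposited whole-number counts per gene, not normalized. Their deposited FPKM are scaled by gene length and library size. The submitters' processing notes list HISAT2, DESeq2 and GRCh38 with no roles. Which counting tool, strand setting and annotation were used is not given in the sources used here. Gene coordinates matched GENCODE 29 for 58690 of 58735 genes, including all 38 members.

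Samples were grouped from their labels. The counts were filtered with filterByExpr, scaled by TMM and fitted in 1 robust quasi-likelihood model of all 21 libraries (edgeR 4.0.16, R 4.3.3, 14 residual degrees of freedom). Benjamini-Hochberg adjustment covered 16196 genes at a threshold of 0.05. In the shallowest library 3 counts correspond to 0.107 CPM. The members and lists were chosen with earlier results of these data known. All 38 members are named, with up to 4 called genes per further list and MYC, CCND1, CDKN1A, RB1 and FOXM1; LIN9 and the list genes named only against the lower treated doses were named after their values were seen. Counts were also simulated for 100 µM against 0 µM, with 50 genes changed at each of the log2 sizes 0.15, 0.25, 0.5 and 1. Of these, 26%, 94%, 100% and 100% were recovered, with 4 false calls among 15996. All genes of at least 50 CPM were eligible for change. The simulated spread followed the trend with mean level, without spread particular to a gene or library, and fewer genes were changed than the 1390 called in the data. These shares therefore need not hold for the real tests. Alternatives were DESeq2 1.42.0 and its size factors, limma 3.58.1 on log2(FPKM + 1) and log2(FPKM + 0.1), other count filters, a replicate block, a length offset, only the 6 libraries compared, each library left out, and, added after seeing the data, a fit without robust estimation. Figures were drawn with matplotlib 3.10.9.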

Additional observations from a re-analysis of the deposited data

How the results depend on the processing

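At 100 µM against 0 µM the 8 calls became 11 with DESeq2, 7 with limma on either FPKM scale, 10 with a length offset (MCM4 lost; RRM1, CDK1 and CCNB1 gained) and 9 with only the 6 libraries compared, and 2 to 13 with 1 library left out. In that 6-library fit CDT1 was called higher, as it was without a filter on low counts. All genes called in that comparison ranged from 699 to 1822 with 1 library left out. Against the 5 lower treated doses 7 calls became 2 to 11 with 1 library left out. At 0.001 to 10 µM the 0 calls became 1 with DESeq2, and 0 to 1 with 1 library left out. Across the 7 groups the 3 calls became 5 with DESeq2, 1 with limma on log2(FPKM + 0.1), 5 without a filter and 0 to 4 with 1 library left out. For the slope over dose the 1 call became 3 with DESeq2, 2 with limma on log2(FPKM + 1), 0 without a filter and 0 to 1 with 1 library left out. The cause of these shifts was not tested. With the replicate block, 7 members were called at 100 µM against 0 µM, and MCM4 was lost (edgeR adjusted p = 0.0518); the pairing check gave correlations of -0.301 to 0.318 between same-numbered libraries, 13 of 63 above 0.1, and 8 of 21 libraries correlated best with their own number, so the numbers were not taken to pair the samples. With 3 libraries per group, the 95% intervals of members not called span changes as large as those of several called members, so a missed threshold does not show that a gene was unchanged.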
